A study of Homo sapiens with 6 samples.

Results

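The genes described here build and regulate the ring-shaped complexes that fold and hold chromosomes: CTCF, cohesin and its regulators, condensin I and II, and the SMC5/6 complex with SMCHD1. They were the rows of the deposited gene table whose symbol is among 31 listed names, and 29 of 26364 rows matched. SGO1 stands in the table under its older symbol SGOL1, which is among those names. WAPL stands there only as WAPAL, which is not, so its values are given beside the members and outside their counts. The study measured RNA by sequencing in Calu3, a human lung adenocarcinoma cell line, after transfection of siRNA against BRD8, a bromodomain protein of a histone acetyltransferase complex. The design set 3 BRD8 siRNA libraries (genotype and treatment as labelled, 20 nmol siRNA with RNAiMax) against 3 libraries with a negative control siRNA at the same amount. Each target had 1 labelled reagent, so off-target effects of that reagent and loss of BRD8 cannot be told apart. Whether the 3 libraries of a group are separate cultures of this 1 line is not stated, so every p-value rests on library-to-library spread that may be technical. The extraction text speaks of confluent HBE cells, whereas titles and cell line labels name Calu3.

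Cohesin is a ring of SMC1A, SMC3 and RAD21, to which STAG1 or STAG2 binds. NIPBL and MAU2 load it on DNA, where it extrudes loops that stop at bound CTCF, and WAPL with PDS5A or PDS5B takes it off again. In S phase ESCO2 acetylates SMC3 and sororin, the product of CDCA5, keeps the rings that hold sister chromatids, which SGO1 then guards at centromeres until anaphase. Condensin shares SMC2 and SMC4 between a first complex (NCAPD2, NCAPG, NCAPH) and a second (NCAPD3, NCAPG2, NCAPH2) and compacts chromosomes in mitosis. SMC5/6 acts in DNA repair and replication, and SMCHD1 is a related protein that keeps chosen loci silent.

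The libraries held 33640814 to 37896467 reads assigned to genes, and 3 reads corresponded to 2.84 to 3.24 normalized counts, the scale of all levels below. BRD8 itself read 2751, 2928 and 3067 normalized counts in control libraries 1 to 3 and 1312, 1084 and 1156 in BRD8 siRNA libraries 1 to 3. It fell by 1.30 on the log2 scale (SE 0.0904, adjusted p = 1.13e-04), and part of its exons lies opposite KIF20A. All 6 epithelial markers examined were present in every library, with summed levels of 309661 to 390410 normalized counts in the control libraries and 415290 to 468071 after BRD8 siRNA. The sums did not overlap between the groups. By gene, in the limma fit described below, CDH1, KRT8 and MUC1 rose (adjusted p = 0.00394, 0.0313 and 0.00917). EPCAM (log2 fold change -0.005, adjusted p = 0.972), KRT18 (adjusted p = 0.159) and KRT19 (adjusted p = 0.0799) did not pass. Without control library 2 KRT18 and KRT19 rose too (adjusted p = 0.00337 and 0.00236), and EPCAM still did not pass (adjusted p = 0.706). KRT8 passed in 2 of the 6 fits that left out 1 library, and CDH1 and MUC1 passed in all 6. The part of these markers in the results was not tested. Of 5 markers of blood, stromal and endothelial cells, only COL1A1 had a mean of 10 or more, and the 5 summed to 161 to 204 in any library. Control library 2 stood apart on the second principal component, which held 20.6% of the variance. Results of members that rest on it are therefore given with and without it.

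All 29 members passed the filter on low values (a mean of at least 10 normalized counts over the 6 libraries). In limma on log2(normalized count + 1), with Benjamini-Hochberg adjustment over 15354 genes and a threshold of 0.05, 13 of 29 members fell and none rose. Over all genes tested 8.93% fell and 10.1% rose, 19.0% in all. By class, 10 of 11 condensin and cohesion genes tied to the cell cycle fell (median log2 fold change -0.65), against 3 of 12 constitutive cohesin and CTCF genes (median -0.22) and 0 of 6 SMC5/6 and SMCHD1 genes (median -0.08). The median over all genes tested was -0.01. Without control library 2 the counts were 10, 7 and 2 genes, and 18.1% of all genes tested fell. Leaving out any 1 of the other libraries left RAD21 as the 1 constitutive gene that fell. Without control library 3 or BRD8 siRNA library 3 the members that fell numbered 8. In those fits 528 and 695 of all 15354 genes tested fell, against 1371 with all 6 libraries. With all 6 libraries 16 members had an unadjusted p under 0.05, beside 5084 of all 15354 genes tested. Of these members 1 was among the 6 SMC5/6 and SMCHD1 genes. In 13 of 29 members every BRD8 siRNA library lay below every control library, a pattern found for 17.9% of all genes tested. These are levels in bulk RNA: fewer cells in the phases in which a gene is transcribed and less RNA per cell cannot be told apart.

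**Figure D1:**
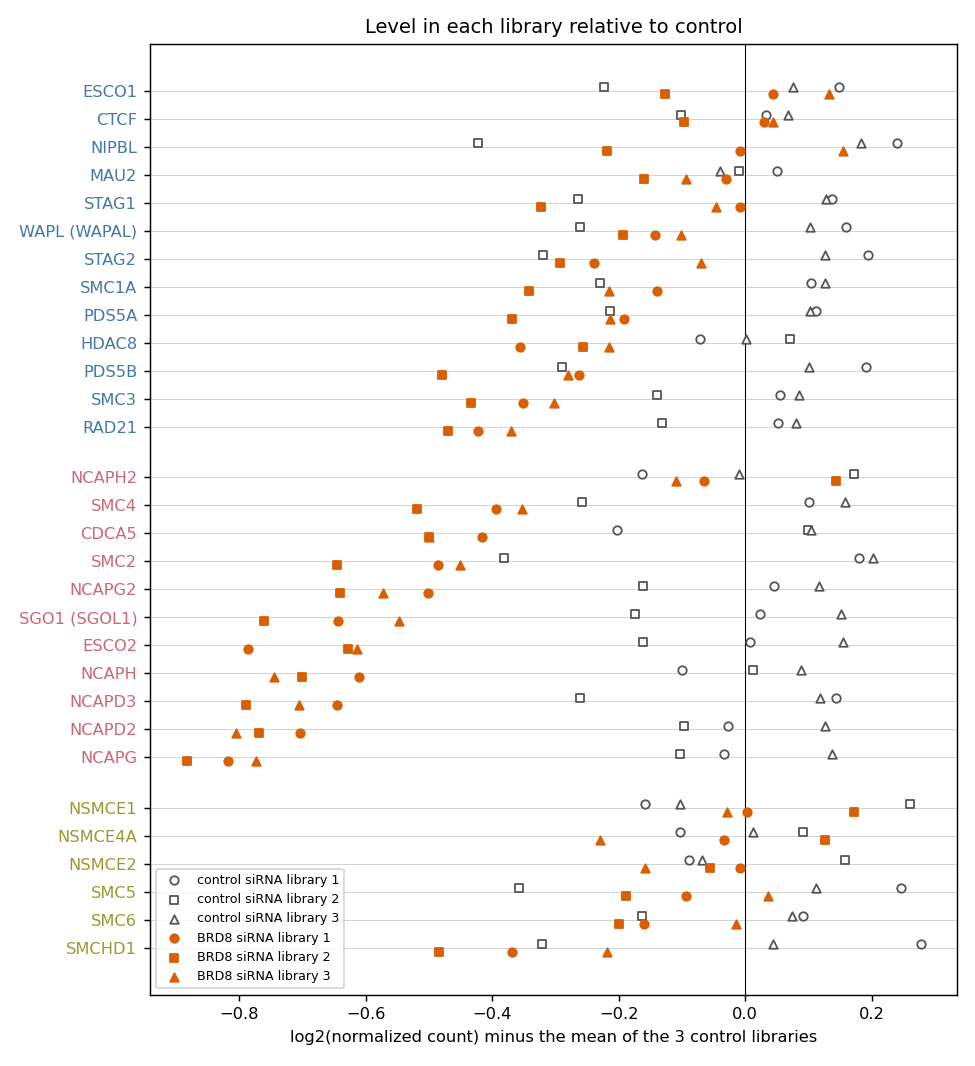
Level of each gene in each of the 6 libraries, as log2(normalized count) minus the mean of the 3 control siRNA libraries (x axis), with genes grouped by class down the y axis (blue names, CTCF and cohesin; red names, condensin and cohesion; olive names, SMC5/6 and SMCHD1). Open symbols are control libraries and filled symbols BRD8 siRNA libraries; for NCAPD2, NCAPG and NCAPH the filled symbols lie well to the left of every open one, while for CTCF and NCAPH2 they mix, and control library 2 (open squares) is the leftmost control for 21 of the 29 members.

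With all 6 libraries NCAPG and NCAPD2 had the largest falls of the members and CTCF did not pass the test. The promoters of these 3 genes are shown for that reason. They are the 250 bases before the start of each gene from RefSeq (build GRCh38.p14), read 5′ to 3′ on the gene's strand, with motif letters in capitals. The windows are at chr4:17810729-17810978 for NCAPG, chr12:6493852-6494101 for NCAPD2 and chr16:67562276-67562525 for CTCF, all on the plus strand.
NCAPG: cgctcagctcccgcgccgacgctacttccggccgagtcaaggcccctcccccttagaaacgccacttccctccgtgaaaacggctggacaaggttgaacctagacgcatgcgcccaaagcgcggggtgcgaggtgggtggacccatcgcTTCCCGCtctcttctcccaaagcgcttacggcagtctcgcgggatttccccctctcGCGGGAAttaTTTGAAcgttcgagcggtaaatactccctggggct
NCAPD2: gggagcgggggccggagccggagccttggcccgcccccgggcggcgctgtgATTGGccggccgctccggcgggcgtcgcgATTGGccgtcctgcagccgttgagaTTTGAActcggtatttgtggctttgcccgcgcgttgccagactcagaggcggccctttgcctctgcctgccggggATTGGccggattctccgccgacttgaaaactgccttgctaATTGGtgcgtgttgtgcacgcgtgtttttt
CTCF: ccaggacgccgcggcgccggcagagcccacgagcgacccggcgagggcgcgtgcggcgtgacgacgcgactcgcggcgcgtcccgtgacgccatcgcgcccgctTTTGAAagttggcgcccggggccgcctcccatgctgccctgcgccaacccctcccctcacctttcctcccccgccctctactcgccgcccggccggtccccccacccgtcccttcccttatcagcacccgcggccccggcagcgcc

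The capitals mark 3 motifs known from promoters of cell cycle genes, searched on both strands: TTTGAA, the cell cycle genes homology region; CCAAT; and GCGGGAA, an E2F-like site. None of the 3 overlaps another by its letters in these windows. The motifs were chosen after the values were seen. NCAPG holds TTTGAA beginning at position -35, counted back from the start, and GCGGGAA at -101 (reverse strand) and -45. In NCAPD2 TTTGAA begins at -145, and CCAAT occurs on the reverse strand from -199 to -30. CTCF, whose level did not pass the test, holds TTTGAA as well, beginning at -146. Windows of the same length were found for 24 of 29 members (not for RAD21, ESCO1, ESCO2, NCAPH2 and NSMCE2). TTTGAA was in 3 of 9 cycle-bound genes, 2 of 10 constitutive genes and 0 of 5 SMC5/6 and SMCHD1 genes, against 16.1% of 27305 genes with a window. CCAAT was in 4, 4 and 1 of them, against 37.0% of all genes, and GCGGGAA in 3, 3 and 0, against 6.66%. Over the genes tested here that have a window, which is the set the members come from, the shares were 12.1% for TTTGAA, 41.2% for CCAAT and 10.4% for GCGGGAA. A match is a description of letters and not a site.

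Condensin I, the complex that reaches chromosomes after the nuclear envelope breaks down, held the 2 largest falls with all 6 libraries. Without control library 2 NCAPD3 of condensin II stood at -0.84, between NCAPG at -0.88 and NCAPD2 at -0.81. With a loess trend with length and GC also removed from each library, NCAPD2 and NCAPD3 stood at -0.76 and NCAPG at -0.71. NCAPG, a HEAT-repeat subunit, read 1517, 1447 and 1707 normalized counts in the control libraries and 882, 842 and 909 after BRD8 siRNA. The BRD8 siRNA libraries lay close together and all far below the lowest control. NCAPG fell by 0.82 (SE 0.0863, 95% interval -1.02 to -0.63, adjusted p = 6.30e-04), the largest fall among the members with all 6 libraries. NCAPD2, the other HEAT-repeat subunit, read 5425, 5172 and 6034 in the controls and 3396, 3248 and 3165 after BRD8 siRNA. It fell by 0.76 (SE 0.0789, adjusted p = 6.13e-04), again with no overlap. NCAPH, the kleisin that closes the condensin I ring, read 918, 993 and 1047 against 645, 606 and 588. It fell by 0.68 (SE 0.0854, adjusted p = 0.00130), and its 3 BRD8 siRNA values were lower than all 3 controls. The fall of all 3 passed the threshold in each of the 6 fits that left out 1 library.

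Condensin II, which is in the nucleus through interphase and starts compaction in prophase, had 2 of its 3 own subunits among the genes that fell. NCAPD3 read 2052, 1550 and 2015 normalized counts in the control libraries and 1187, 1075 and 1140 after BRD8 siRNA. Control library 2 was the lowest control by a wide margin and still above every BRD8 siRNA library. NCAPD3 fell by 0.71 (SE 0.114, adjusted p = 0.00383). NCAPG2 read 2199, 1904 and 2309 against 1504, 1366 and 1432, with no overlap, and fell by 0.57 (SE 0.0905, adjusted p = 0.00364). NCAPD3 and NCAPG2 also passed in each of the 6 fits that left out 1 library. The kleisin of the second complex, NCAPH2, was the single cycle-bound gene that did not pass. Its values were 1130, 1425 and 1256 in the controls and 1209, 1397 and 1173 after BRD8 siRNA. The groups overlapped throughout, and the log2 fold change was -0.01 (95% interval -0.25 to 0.23, adjusted p = 0.960), or +0.08 without control library 2.

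The 2 SMC subunits common to both condensins fell, with calls that rested on the libraries used. SMC4, an ATPase arm of the ring, read 13667, 10656 and 14223 normalized counts in the controls and 9702, 8893 and 9981 after BRD8 siRNA. SMC2, its partner arm, read 1591, 1077 and 1615 against 1003, 898 and 1028. In both genes control library 2 was close to the BRD8 siRNA libraries while the other controls were well above, and the groups did not overlap. SMC4 fell by 0.42 (SE 0.112, adjusted p = 0.0314) and SMC2 fell by 0.53 (SE 0.151, adjusted p = 0.0416). Without control library 2 the adjusted p was 2.01e-04 for SMC4 and 1.08e-04 for SMC2. Leaving out any 1 of the other 5 libraries ended both calls, with adjusted p of 0.0726 to 0.133 for SMC4 and 0.0895 to 0.159 for SMC2.

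The 3 cohesion genes among the cycle-bound members, ESCO2, SGO1 and CDCA5, fell as well. ESCO2, the acetyltransferase that locks cohesin during replication, read 572, 510 and 634 normalized counts in the controls and 331, 369 and 372 after BRD8 siRNA. Every BRD8 siRNA value was lower than every control, and ESCO2 fell by 0.67 (SE 0.107, 95% interval -0.92 to -0.43, adjusted p = 0.00369). SGO1, the protector of centromeric cohesin, read 441, 384 and 482 against 278, 256 and 297. It did not overlap either and fell by 0.65 (SE 0.113, adjusted p = 0.00562). ESCO2 and SGO1 passed in each of the 6 fits that left out 1 library. CDCA5, which encodes sororin, read 1211, 1493 and 1498 against 1045, 986 and 986. Control library 1 was the lowest control and lay nearest the BRD8 siRNA libraries. CDCA5 fell by 0.47 (SE 0.0985, adjusted p = 0.0118), a call lost without control library 3 (adjusted p = 0.0643) or BRD8 siRNA library 3 (adjusted p = 0.0529).

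Among the constitutive genes, 2 of the 3 ring genes of cohesin fell. RAD21, the kleisin that separase cleaves at anaphase, read 7507, 6607 and 7657 normalized counts in the control libraries and 5406, 5228 and 5603 after BRD8 siRNA. The lowest control, library 2, was above the highest BRD8 siRNA library. RAD21 fell by 0.42 (SE 0.0786, 95% interval -0.60 to -0.24, adjusted p = 0.00749), to 74.6% of the control mean, and passed in each fit that left out 1 library (highest adjusted p 0.0477). SMC3, the arm that the ESCO enzymes acetylate, read 2531, 2211 and 2583 against 1910, 1805 and 1976. The groups did not overlap, and SMC3 fell by 0.36 (SE 0.0841, adjusted p = 0.0186). Without control library 2 its adjusted p was 0.00105; leaving out any other single library gave 0.0511 to 0.0971 and ended the call.

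SMC1A, the other arm of the ring, read 4634, 3677 and 4704 normalized counts in the controls and 3916, 3401 and 3712 after BRD8 siRNA. Control library 2 lay inside the BRD8 siRNA range, so the groups overlapped. The log2 fold change was -0.23 (95% interval -0.48 to 0.01, adjusted p = 0.168), and it was -0.35 with an adjusted p of 0.00448 without that library. Once a loess trend with length and GC was removed from each library, SMC1A stood at -0.12 (adjusted p = 0.146), and at -0.13 (adjusted p = 0.133) with that library left out too, so the call depended on the setting. STAG2, a HEAT-repeat subunit that binds RAD21, read 9304, 6513 and 8879 against 6893, 6640 and 7745. Here control library 2 was the lowest of all 6, and the others were above every BRD8 siRNA library. Its log2 fold change was -0.20 (95% interval -0.50 to 0.10, adjusted p = 0.333), or -0.36 with an adjusted p of 0.00428 without control library 2. With that trend removed STAG2 stood at -0.07 (adjusted p = 0.386), and at -0.12 (adjusted p = 0.106) with control library 2 left out as well. STAG1, the alternative subunit, had a log2 fold change of -0.13 (95% interval -0.42 to 0.17, adjusted p = 0.541) with overlapping groups. It was -0.26 (adjusted p = 0.0531) without control library 2 and -0.02 with the length and GC trend removed.

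CTCF, the zinc finger protein that stops loop extrusion, had nearly the same mean in both groups. It read 1685, 1535 and 1726 normalized counts in the control libraries and 1680, 1540 and 1698 after BRD8 siRNA, with means of 1649 ± 100.3 and 1639 ± 86.3 (SD, n = 3). Each group had its lowest value in library 2, and the groups overlapped almost fully. With a log2 fold change of -0.01 (SE 0.0804) CTCF had an adjusted p of 0.958, and the 95% interval of -0.19 to 0.17 corresponds to a change between -12.4% and 12.9%. A fall of the size seen in RAD21 lies outside that interval.

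The loaders and release factors of cohesin did not pass the test. NIPBL, the loader, had a log2 fold change of -0.02 (95% interval -0.41 to 0.37, adjusted p = 0.939), with 4279, 2701 and 4112 normalized counts in the controls and 3601, 3114 and 4030 after BRD8 siRNA. Control library 2 was far below all other libraries, and without it the value was -0.24 (adjusted p = 0.0811), against 0.15 with the length and GC trend removed. MAU2, the loader's partner, stood at -0.09 (adjusted p = 0.445). PDS5A and PDS5B, which bind RAD21 and serve both release and acetylation, stood at -0.26 (95% interval -0.49 to -0.02, adjusted p = 0.117) and -0.34 (95% interval -0.63 to -0.05, adjusted p = 0.102). WAPL, the release factor outside the counts, stood at -0.15 (adjusted p = 0.403). Without control library 2 PDS5A, PDS5B and WAPL passed, with adjusted p of 0.00339, 0.00174 and 0.00959. With the length and GC trend removed and control library 2 left out PDS5B still passed (-0.20, adjusted p = 0.0334), but PDS5A (-0.14, adjusted p = 0.0633) and WAPL (-0.07, adjusted p = 0.336) did not.

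Of the 2 enzymes of the constitutive SMC3 acetylation cycle HDAC8 passed the test and ESCO1 did not, and the difference between them was not tested. ESCO1, the acetyltransferase active outside S phase, had a log2 fold change of 0.02 (95% interval -0.24 to 0.27, adjusted p = 0.935). HDAC8, the deacetylase that recycles SMC3, read 1044, 1151 and 1098 normalized counts in the controls and 857, 918 and 944 after BRD8 siRNA. The groups did not overlap, control library 2 being the highest, and HDAC8 fell by 0.28 (SE 0.0802, adjusted p = 0.0435). The call sat at the threshold. It held with DESeq2 on the recovered reads, both other pseudocounts, a filter at a mean of 50, and the replicate number as a block. In the authors' own test its adjusted p was 0.0300. The call was lost with TMM scaling, with quantile normalization and without a filter on low values. With edgeR's quasi-likelihood test on the recovered reads its adjusted p was 0.0513. Removal of a trend with length and GC content, taken from 1 transcript of 5689 bases for HDAC8, also ended it (log2 fold change -0.18, adjusted p = 0.223). So did 5 of the 6 fits that left out 1 library (adjusted p up to 0.150).

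**Figure D2:**
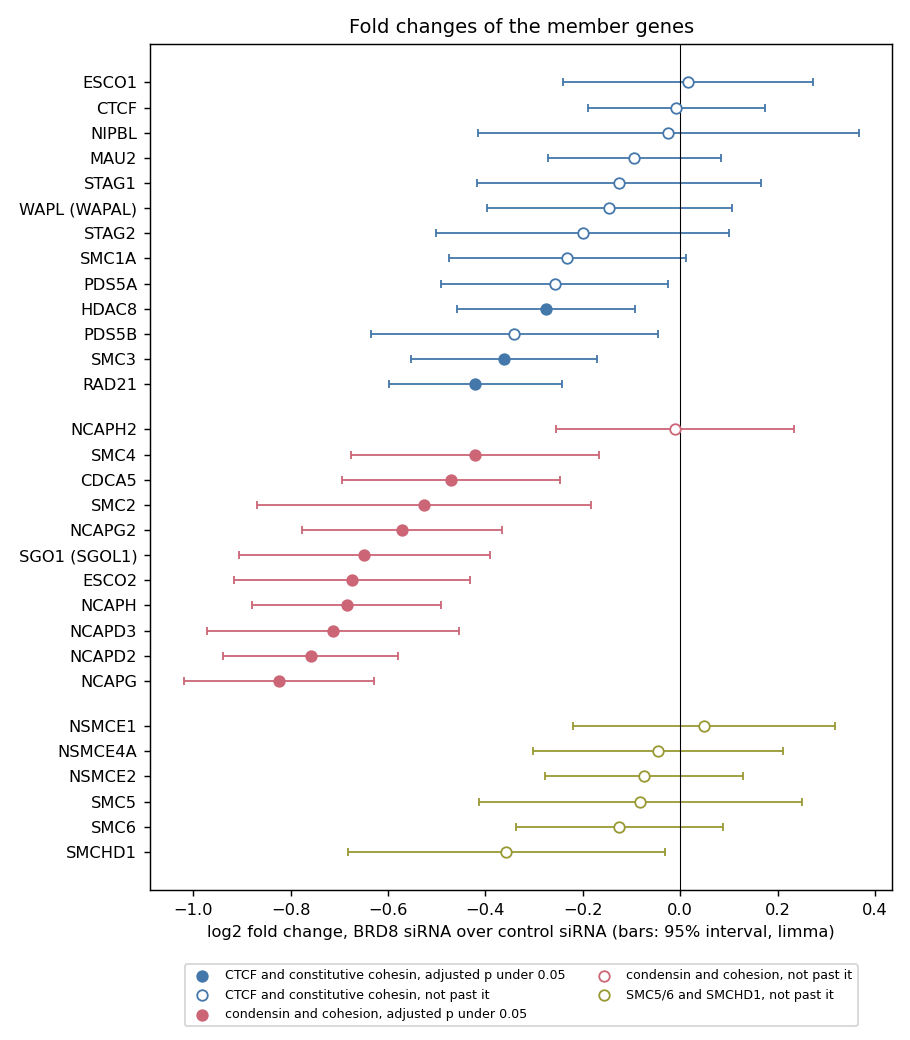
Log2 fold change of BRD8 siRNA over control siRNA (x axis) with its 95% interval for each gene (y axis), from limma over all 6 libraries, with genes grouped by class and called genes drawn as filled points. All called genes lie left of 0; the cycle-bound genes reach -0.82 for NCAPG, and NCAPH2 and CTCF sit at -0.01.

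None of the SMC5/6 genes passed with all 6 libraries. SMC5, 1 arm of that ring, read 2527, 1664 and 2302 normalized counts in the controls and 1997, 1870 and 2186 after BRD8 siRNA. Control library 2 was the lowest of all 6, and the log2 fold change was -0.08 (95% interval -0.41 to 0.25, adjusted p = 0.736). Without that library it was -0.26 (adjusted p = 0.0332), but with the length and GC trend removed it was 0.05 (adjusted p = 0.621), and -0.02 (adjusted p = 0.826) with control library 2 left out as well. SMC6, the other arm, stood at -0.12 (adjusted p = 0.398), or -0.21 (adjusted p = 0.0618) without control library 2. None of the non-SMC subunits passed. NSMCE1, a RING finger protein, stood at 0.05 (adjusted p = 0.811), or 0.18 (adjusted p = 0.119) without control library 2. The SUMO ligase NSMCE2 stood at -0.07 (adjusted p = 0.604) and the kleisin NSMCE4A at -0.05 (adjusted p = 0.814).

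SMCHD1 had the lowest log2 fold change of the 6 genes of this group and did not pass. It read 3160, 2086 and 2689 normalized counts in the controls and 2019, 1864 and 2240 after BRD8 siRNA. Controls 1 and 3 were above every BRD8 siRNA library, and control library 2 lay among them. SMCHD1 had a log2 fold change of -0.36 (SE 0.143, 95% interval -0.68 to -0.03, adjusted p = 0.119). Without control library 2 it was -0.52 (adjusted p = 0.00183), and after removal of the length and GC trend -0.19 (adjusted p = 0.0292).

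Paralogs and matching subunits were compared as ratios within each library, which do not depend on how libraries are scaled. Over 6 such ratios an exact two-sided permutation test of 3 against 3 libraries cannot go below p = 0.1, so none could pass a threshold of 0.05. ESCO2 relative to ESCO1 had log2 ratios of -1.96, -1.76 and -1.74 in the controls and -2.65, -2.32 and -2.57 after BRD8 siRNA. The groups did not overlap, and the mean moved by -0.69 from -1.82 ± 0.123 to -2.51 ± 0.172 (SD, n = 3, exact p = 0.1, adjusted over 6 ratios 0.2). For NCAPH relative to NCAPH2, the 2 kleisins, the ratios were -0.30, -0.52 and -0.26 against -0.91, -1.20 and -0.996. They did not overlap either, and the mean moved by -0.68 (exact p = 0.1, adjusted 0.2). NCAPG relative to NCAPG2 moved by -0.25, also without overlap (exact p = 0.1, adjusted 0.2).

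The remaining 3 ratios overlapped between the groups. NCAPD2 relative to NCAPD3 had a mean log2 ratio of 1.57 ± 0.168 in the controls and 1.53 ± 0.0615 after BRD8 siRNA (SD, n = 3, exact p = 0.8, adjusted 0.8). STAG2 relative to STAG1 went from 1.75 ± 0.0560 to 1.68 ± 0.138 (exact p = 0.6, adjusted 0.72). PDS5B relative to PDS5A went from -1.37 ± 0.0775 to -1.45 ± 0.0238 (exact p = 0.3, adjusted 0.45). Leaving out BRD8 siRNA library 1 turned the STAG difference from -0.07 to 0.003, and leaving out control library 2 turned the NCAPD2 difference from -0.05 to 0.04.

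**Figure D3:**
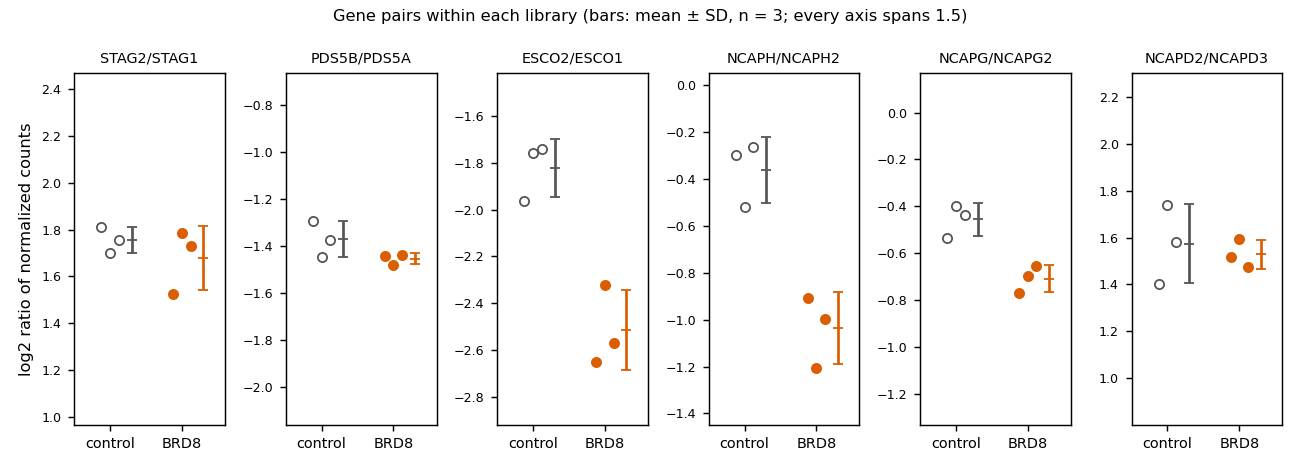
Log2 ratio of normalized counts of 6 gene pairs (y axes, each spanning the same range) in the 3 control and 3 BRD8 siRNA libraries, with points for libraries and bars for the mean and SD (n = 3). The groups are separate for ESCO2/ESCO1, NCAPH/NCAPH2 and NCAPG/NCAPG2 and overlap for the other 3 pairs.

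Control library 2 was low for most of the long transcripts of the set. Its level relative to the mean of controls 1 and 3 (log2) followed transcript length over the 29 members with Spearman's rho of -0.782, and over 14821 genes with a length with rho of -0.540; genes share these 3 libraries and are not independent. It lay below both other controls in 21 of 29 members (10 of 12 constitutive, 8 of 11 cycle-bound and 3 of 6 SMC5/6 and SMCHD1 genes). The longest, NIPBL, was lower in control library 2 by a log2 difference of -0.63, SMC2 by -0.57 and SMC5 by -0.54. The short NSMCE1 was higher by 0.39 and NCAPH2 by 0.26. Length did not order every gene: SMC1A, at 9784 bases, differed by -0.34, and HDAC8, at 5689 bases, was higher by 0.10. After removal of a loess trend with transcript length and GC content, 10 cycle-bound genes, 3 constitutive genes (RAD21, SMC3 and PDS5B) and SMCHD1 fell, against 16.1% of 14821 genes. The same numbers of genes per class fell with that trend removed and control library 2 left out, a setting chosen after seeing the data. RNA quality values were not analysed here, and what set this library apart was not tested.

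**Figure D4:**
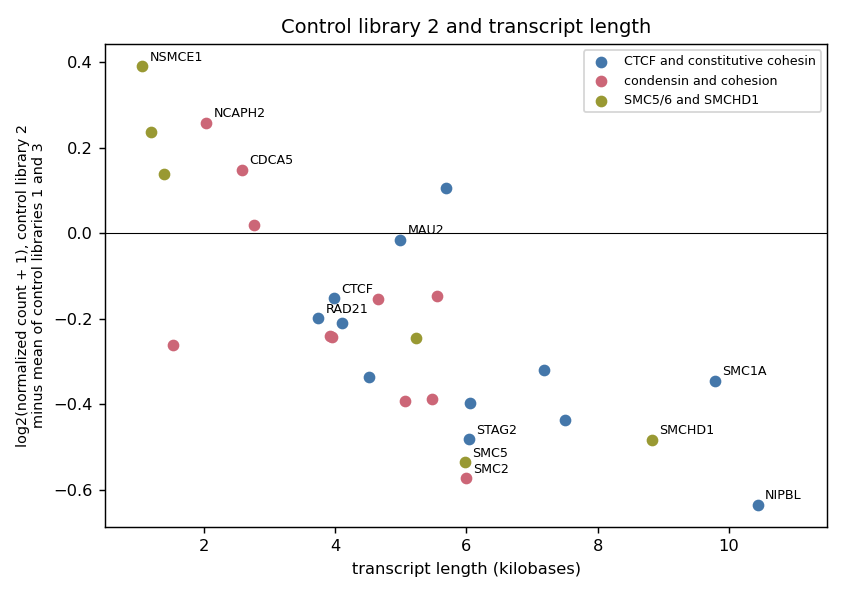
Difference between control library 2 and the mean of control libraries 1 and 3, in log2(normalized count + 1) (y axis), against transcript length in kilobases (x axis) for the members, colored by class. Points run from NSMCE1 at 0.39 down to NIPBL at -0.63, and the rank correlation over 29 members is -0.782.

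**Figure D5:**
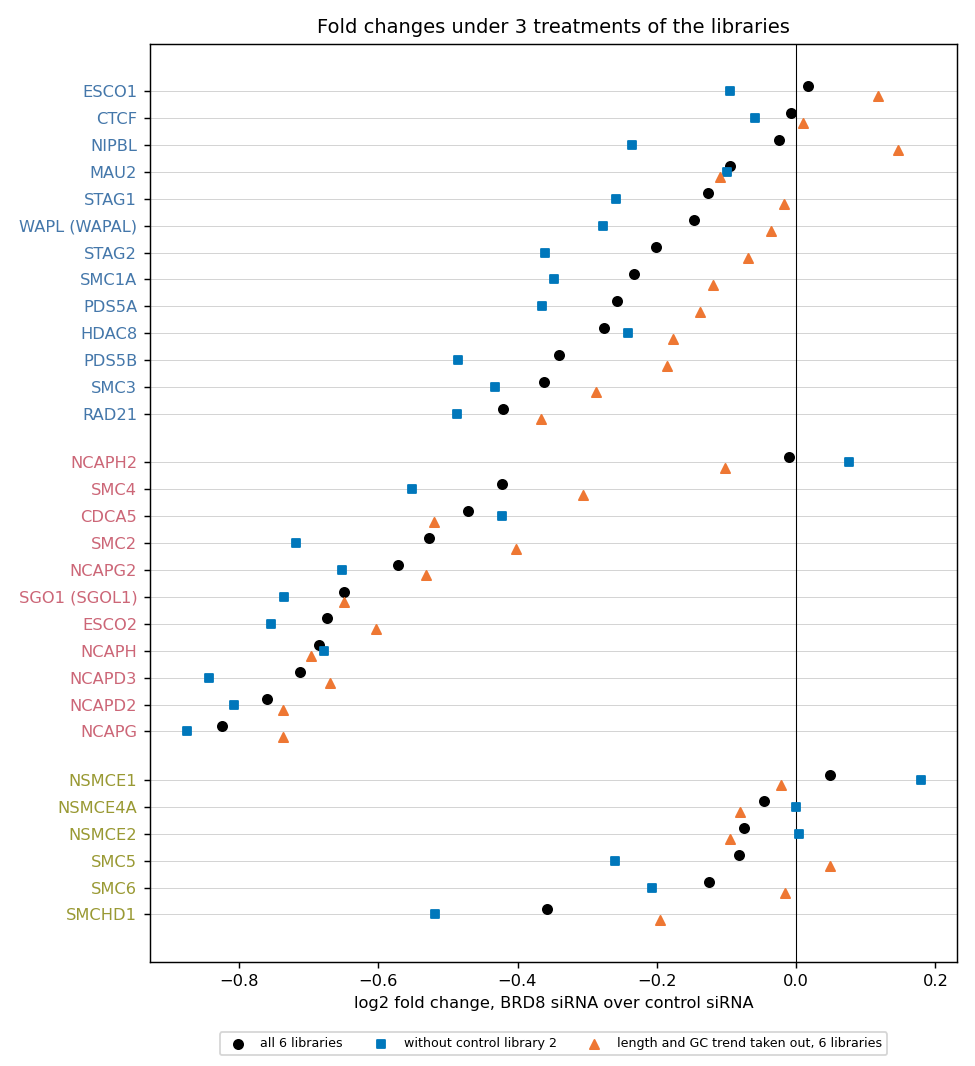
Log2 fold change of BRD8 siRNA over control siRNA (x axis) for each gene (y axis) with all 6 libraries (black circles), without control library 2 (blue squares) and after removal of the length and GC trend (orange triangles). NIPBL moves from -0.24 to 0.15 between settings, whereas 10 cycle-bound genes lie between -0.31 and -0.88 in all 3.

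Levels between genes were compared per kilobase of the principal transcript. In the controls SMC4 (2348 ± 351 normalized counts per kb, SD, n = 3) and RAD21 (1936 ± 151) stood highest and lay within the sum of their SDs of each other, with NSMCE2 (1612 ± 157) next. Within the cohesin ring RAD21 was above SMC3 (594 ± 49.0) and SMC1A (443 ± 58.6), and STAG2 (1362 ± 249) was above STAG1 (401 ± 60.7). CTCF (413 ± 25.1), SMC1A, STAG1, PDS5A (465 ± 57.3) and ESCO1 (448 ± 59.1) lay between 401 and 465, with overlapping SDs. Of the condensin I subunits NCAPD2 (999 ± 79.9) was above NCAPH (357 ± 23.3) and NCAPG (334 ± 28.9), whose SDs overlapped. All these SDs are over the same 3 libraries, and differences between genes within a library were not tested. At the low end were MAU2 (170 ± 5.36), PDS5B (173 ± 29.2) and ESCO2 (146 ± 15.9). These levels rest on 1 transcript per gene, and reads were from a kit that does not mark strand. Exons of 16 of 29 members, 6 of the 13 that fell among them, overlap those of a gene on the opposite strand (for RAD21 UTP23, for NCAPD2 MRPL51, for NCAPG LCORL), whose reads cannot be told apart there.

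Genes that work with the members were read from 6 lists, 37 genes in all. Of the 33 that passed the filter on low values, 14 fell and none rose, against 8.93% and 10.1% of all genes tested. With the length and GC trend removed 19 fell and 2 rose, where 2393 and 2420 of all 14821 genes did. All 9 genes of cohesin release and protection fell (median log2 fold change -0.66, against -0.01 over all genes tested). ESPL1, which encodes separase, went from 832 ± 69.1 to 465 ± 50.9 normalized counts (SD, n = 3) and fell by 0.84 (adjusted p = 0.00139). The spindle checkpoint kinase BUB1 fell by 0.75 (adjusted p = 8.97e-04) and CDK1, the mitotic kinase, fell by 0.59 (adjusted p = 9.77e-04). Of 4 genes of mitotic chromosome shape 3 fell: TOP2A, the topoisomerase that untangles chromatids, went from 59691 ± 8564 to 30386 ± 1783 normalized counts and fell by 0.97 (adjusted p = 9.09e-04). KIF4A, a chromokinesin, fell by 0.79 (adjusted p = 0.00119), and MKI67, which coats mitotic chromosomes, fell by 0.80 (adjusted p = 0.00620).

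Cohesion establishment at forks had 2 of 8 genes that fell (median -0.32), against 8.93% of all genes tested. DSCC1, a subunit of an alternative clamp loader, fell by 0.52 (adjusted p = 0.00862), and CLSPN, the fork protein claspin, fell by 0.50 (adjusted p = 0.0235). The CLSPN call was lost without control library 1 or 3 or BRD8 siRNA library 2 or 3 (adjusted p 0.0720 to 0.101). WDHD1, a fork protein, stood at -0.37 (adjusted p = 0.0586), and passed in the authors' own test (adjusted p = 0.0311). Without control library 2, 3 of these 8 genes fell, WDHD1 among them (adjusted p = 0.00506), where 18.1% of all genes tested did. After that library was put back and the trend taken out, 5 of the 8 fell, again including WDHD1 (adjusted p = 0.0379), against 16.1% of all genes. Under both changes 3 of the 8 fell, and WDHD1 did not pass (adjusted p = 0.0536). Of the looping and insulation factors 0 of 6 tested passed (median -0.10), where 19.0% of all genes tested passed in either direction. Among these 6 the zinc finger protein MAZ stood at -0.13 (adjusted p = 0.305) and the zinc finger protein YY1 at -0.11 (adjusted p = 0.379). Once the length and GC trend was removed, 2 of these 6 fell, MAZ among them (adjusted p = 0.0400), against the same 16.1% of all genes. CTCFL, the germline paralog of CTCF, read 0.948 to 2.03 normalized counts, under the level of 3 reads in every library.

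The partners of SMC5/6 and SMCHD1 had 0 of 4 tested genes past the threshold (median 0.10), where 19.0% of all genes tested passed in either direction. With the length and GC trend removed 2 of the 4 rose, LRIF1 (adjusted p = 0.0258) and SLF2 (adjusted p = 0.0435). In that setting 2420 of all 14821 genes rose. When control library 2 was left out too, SLF2 no longer passed (adjusted p = 0.0531). LRIF1 still rose there (adjusted p = 0.0370), as did NSMCE3 (adjusted p = 0.0114), beside 2654 of all 14821 genes. SLF1, which brings SMC5/6 to damaged DNA, stood at -0.36 (adjusted p = 0.0641, and 0.00974 without control library 2), NSMCE3, a MAGE family subunit, at 0.23 (adjusted p = 0.193) and LRIF1, which binds SMCHD1, at 0.12 (adjusted p = 0.327). EID3 had a mean under 10 and was not tested. Of the germline cohesin genes STAG3 (log2 fold change -0.43, adjusted p = 0.148) and REC8 (0.10, adjusted p = 0.792) could be tested and did not pass with 6 libraries; STAG3 passed without control library 2 (adjusted p = 0.0212). SMC1B had a mean under 10, and RAD21L1 was listed at 0 in 4 libraries, all 3 controls among them, with 1 read in each of the others.

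In the authors' deposited table, whose test was run on the same libraries, the adjusted p was 3.17e-14 for NCAPD2, 2.29e-13 for NCAPG, 6.76e-05 for RAD21 and 0.968 for CTCF. Of the genes with an adjusted p in the authors' deposited table, 10.1% had one under 0.05 with a lower level after BRD8 siRNA.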

How the data were processed

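RNA of 3 control siRNA and 3 BRD8 siRNA Calu3 libraries was sequenced after preparation with TruSeq RNA v2, per the labels' protocols. Per the submitters' processing notes, STAR 2.6, featureCounts 1.6.3 of Subread and DESeq2 1.22.1 were used with hg19; for annotation and strand setting the sources used here give nothing. The deposited signal columns hold normalized counts, that is, gene counts divided by a size factor per library. All values (100.0%) were whole multiples of 1 read within 0.01, so reads were recovered and library totals taken from them. The table also holds the authors' log2 fold change, its standard error on the log2 scale, a test score, and p-values with adjusted p-values from their own comparison; these were used only where named.

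Values were tested with limma 3.58.1 under R 4.3.3, on log2(normalized count + 1) and with its variance trend, in genes with a mean of at least 10, with Benjamini-Hochberg adjustment over all of them; a fold change on that scale understates the change of low genes. Recovered reads were tested as an alternative with edgeR 4.0.16 and DESeq2 1.42.0. The script was tested on simulated data before use. Lengths are of the principal GENCODE 29 transcript, matched by symbol for 24472 rows. Alternatives took a loess trend (span 0.5) of length and GC content out of each library. That trend rests on 1 transcript per gene, and other transcripts were not tried. Promoters came from RefSeq (GRCh38.p14), matched by symbol. Alternatives were the pseudocount, the filter, quantile and TMM scaling, the test, each library left out, and the replicate number as a block.

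Every member was named. Values per library were given for each member past the threshold and for CTCF and the ring genes RAD21, SMC1A, SMC3 and STAG2; those of NIPBL, NCAPH2, SMC5 and SMCHD1, and the related gene SLF2, were added after their values were seen. Of each related list up to 3 genes with the smallest adjusted p were named, and any at 0; 1 gene of these lists is not reported here. The members and lists were chosen with earlier results of these data known.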

Additional observations from a re-analysis of the deposited data

How the results depend on the processing

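No member rose under any setting run. Genes called over the whole table numbered 2920 with all 6 libraries, 1360 (without control replicate 3) to 5229 (without control replicate 2) with 1 library left out, 4813 after removal of the length and GC trend and 4769 with that trend and the replicate block. With settings chosen after seeing the data they numbered 5338 (trend taken out, without control replicate 2) and 5254 (edgeR without control replicate 2). Members that fell numbered 13, and 8 (without control replicate 3 or BRD8 replicate 3) to 19 (without control replicate 2) with 1 library left out. Of 15354 genes tested 1371 fell, 528 without control replicate 3, 695 without BRD8 replicate 3 and 2784 without control replicate 2. Cycle-bound genes that fell numbered 10 in every setting with all 6 libraries and 7 to 10 with 1 left out. Constitutive genes that fell numbered 3, with a range of 1 to 7 on leaving out 1 library (7 without control replicate 2, 1 without any other), 2 with no filter, quantile normalization, TMM scaling or edgeR (HDAC8 lost in each), 6 under the replicate block and 6 with edgeR without control replicate 2. SMC5/6 and SMCHD1 genes called numbered 0, and 0 to 2 with 1 library left out (2 without control replicate 2). They numbered 1 under the replicate block, 1 with the trend taken out, 1 with trend and replicate block, 1 with the trend taken out without control replicate 2, and 2 with edgeR without it. The gene pair differences on leaving out 1 library were -0.79 to -0.62 for ESCO2/ESCO1, -0.76 to -0.59 for NCAPH/NCAPH2, -0.29 to -0.22 for NCAPG/NCAPG2, -0.12 to -0.04 for PDS5B/PDS5A, -0.13 to 0.003 for STAG2/STAG1 and -0.13 to 0.04 for NCAPD2/NCAPD3. The cause of these shifts was not tested. Same-numbered libraries deviated with correlations of -0.0845, 0.335 and 0.155, and those with unlike numbers with -0.361 to 0.326. Whether replicate numbers pair the libraries was not settled by these values. The replicate block gave 3901 genes called, 1962 of them lower, and 17 members that fell. With 3 libraries a group, 1 line, 1 reagent per target and no strand mark, changes of the size of the HDAC8 fall lie at the edge of what these libraries show.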
